A study of Mus musculus with 48 samples.

Results

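The transcripts of complex I of the respiratory chain were followed while primary mouse cells were driven to become brown-like adipocytes. Complex I (NADH:ubiquinone oxidoreductase) is the first enzyme of the chain. It takes electrons from NADH, passes them to ubiquinone and pumps protons across the inner mitochondrial membrane. It is L-shaped: a matrix arm, with an N module that oxidises NADH and a Q module that reduces ubiquinone, stands on a membrane arm that pumps protons. The core of the membrane arm is encoded by mitochondrial DNA, the core of the matrix arm and all accessory subunits by nuclear genes, and assembly factors build the enzyme without staying in it. Brown and beige fat hold many mitochondria, in which UCP1 lets the proton gradient run down as heat.

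Members were all genes of the deposited tables whose symbol is Ndufa, Ndufb, Ndufc, Ndufs or Ndufv with a number, Ndufab1, and Ndufaf with a number. This gave 45 of 55450 genes, each protein-coding. They are 7 core subunits, 9 accessory subunits of the matrix arm, 19 accessory subunits of the membrane arm, the acyl carrier protein Ndufab1, Ndufa4, which is now assigned to complex IV, and 8 assembly factors. They lie on 17 chromosomes, with at most 6 on any of them. Left out were 6 further symbols. They are the pseudogenes Ndufa11b, Ndufb4c, Ndufs6b and Ndufab1-ps, Ndufb1-ps, annotated as a non-coding RNA, and Ndufa4l2, a paralog of Ndufa4 whose symbol the rule does not take. No gene with the symbol Ndufb1 is among the members, and whether Ndufb1-ps stands for that subunit was not tested. All 45 members passed the filter on low counts in every comparison, and the lowest count of a member in any library was 25 (Ndufaf6) in preadipocytes and 42 (Ndufaf8) in MEFs.

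RNA-seq libraries were made from white preadipocytes of inguinal white adipose tissue (iWAT) of adult mice at days 0, 3, 6 and 9, and from mouse embryonic fibroblasts (MEFs) at days 0, 4, 8 and 12. All were C57BL/6 by label, either WT or DKO (Hmgn1-/- and Hmgn2-/-), where HMGN1 and HMGN2 are proteins that bind nucleosomes, with 3 libraries per genotype, cell type and day and 48 in all. Day 0 cells were taken before induction. Both genotypes were then induced by the same protocol, a cocktail of rosiglitazone, IBMX, T3, dexamethasone and insulin planned for 4 days in preadipocytes and 8 days in MEFs, followed by insulin and T3 alone for 4 days, and earlier libraries had gone through only part of it. The DKO cells came from mice without either protein, so the loss precedes the culture, and the sources used here do not say whether libraries of a group came from separate animals. Summed counts were 19809397 to 36006696 per preadipocyte library and 18962483 to 33083213 per MEF library. Hmgn2, deleted in DKO cells, had 0 to 10 counts in the 12 DKO preadipocyte libraries against 744 to 4094 in WT, and 0 to 3 against 1046 to 6069 in MEFs. Hmgn1 kept 1571 to 3160 counts in DKO preadipocytes against 1542 to 5184 in WT, which overlap, and 1748 to 3493 in DKO MEFs against 2457 to 6120 in WT, and counts per gene do not show which exons these reads came from.

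Levels are given as CPM (counts scaled to a common library size, with TMM factors) over the 24 libraries of a cell type, differences as log2 fold changes with their standard error (SE). A member passed the test at an adjusted p under 0.05 (edgeR's quasi-likelihood test, Benjamini-Hochberg over all genes tested). A member past the test was called higher or lower by the sign of its log2 fold change. The median of all genes lay between −0.01 and 0.01 in all 8 comparisons of genotype. These are bulk libraries, so a lower share of one cell type and less RNA per cell cannot be told apart.

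During browning of WT preadipocytes the complex I genes rose in 1 step, between days 3 and 6. The summed level of the 45 members was 1623, 1546 and 1498 CPM at day 0, 1601, 1730 and 1704 CPM at day 3, 4095, 5165 and 4310 CPM at day 6 and 4853, 4879 and 5009 CPM at day 9 (WT replicates 1, 2 and 3). Every day 6 library was above every day 3 library, and the day 6 and day 9 ranges overlapped. From day 3 to day 6, 45 of 45 members rose, against 32.8% of all genes tested, and 44 of them by at least 1.5-fold, against 22.5% of all genes. Their median log2 fold change was 1.43 (2.69-fold), against 0.00 over all genes. Other sums changed in the same step, by the ratio of the WT means of days 6 and 3. The ratio was 3.04 for complex II, 2.84 for complexes III, IV and V and 1.9 for the mitochondrial ribosome. It was 13.5 for adipocyte markers, 78.8 for macrophage markers and 0.396 for preadipocyte and fibroblast markers. The part of the cell composition in the rise of the members was not tested.

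**Figure D1:**
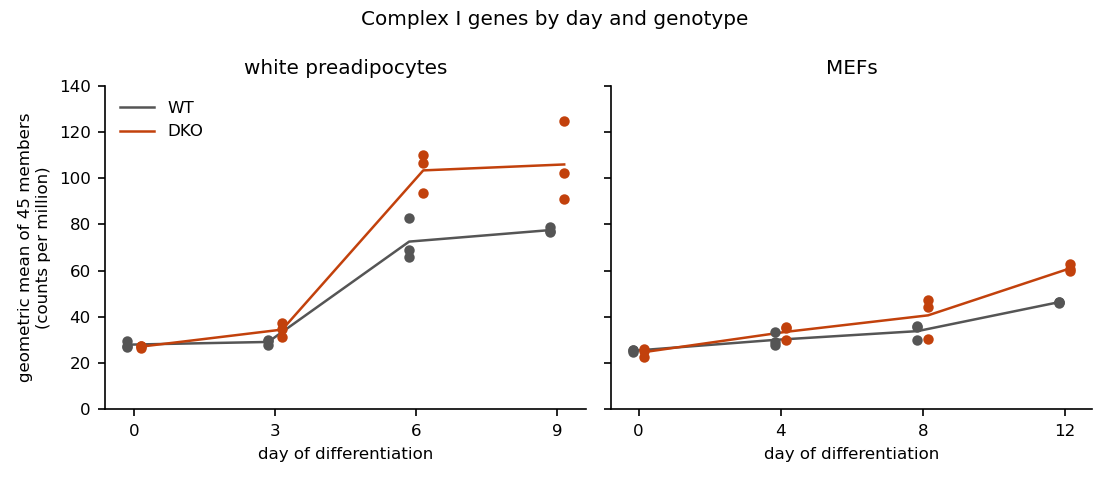
Geometric mean of the CPM of the 45 members (vertical axis, linear) by day of differentiation, WT in grey and DKO in orange. Points are libraries and lines join group means. The rise falls between days 3 and 6 in preadipocytes and is spread over days 0 to 12 in MEFs. DKO libraries lie above WT libraries at preadipocyte days 3, 6 and 9 and MEF day 12.

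The roles overlapped in the size of that rise, and a difference between them was not tested. The 7 core subunits had a median log2 fold change of 1.70 (3.25-fold), the 19 membrane arm accessory subunits 1.44, the 9 matrix arm accessory subunits 1.22 and the 8 assembly factors 1.22. Ndufv1, the flavoprotein that takes the electrons from NADH, rose the most (log2 fold change 2.16 ± 0.11, adjusted p = 3.87e-08), from 56.6, 67.9 and 60.4 CPM at day 3 to 239, 319.7 and 255 CPM at day 6. It was followed by Ndufa10, an accessory subunit of the membrane arm (1.97 ± 0.08), and Ndufa9, which sits beside the ubiquinone pocket (1.94 ± 0.08). The smallest rise was that of Ndufaf2, a factor of late assembly of the N module (0.39 ± 0.11, adjusted p = 0.00612), and it alone stayed under 1.5-fold. The next smallest were Ndufa11 (0.61 ± 0.12), Ndufa7 (0.64 ± 0.11) and Ndufa13 (0.69 ± 0.11).

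Before this step the members were mixed. From day 0 to day 3, 10 rose, against 20.7% of all genes, and 4 fell, against 21.4% (median 0.11, all genes 0.01). Ndufa6, of the LYR family of the matrix arm, rose the most (0.70 ± 0.11, adjusted p = 0.000373), ahead of Ndufb11 (0.46 ± 0.08) and Ndufa1 (0.42 ± 0.06), both X-linked membrane arm subunits. The members that fell were the Q module assembly factor Ndufaf3 (−0.63 ± 0.13, adjusted p = 0.0022), Ndufaf5, which hydroxylates NDUFS7 (−0.41 ± 0.13), the core subunit Ndufs8 (−0.33 ± 0.11) and Ndufs4 (−0.25 ± 0.08). Without WT replicate 1 of day 0 the number past the test was 9 in place of 14, and without WT replicate 3 of day 3 it was 7. From day 6 to day 9, 4 members rose, against 13.7% of all genes, and 2 fell, against 13.3%. With same-numbered cultures as a block, 4 rose and 1 fell. Those that rose were Ndufa3, Ndufa9, Ndufs4 and Ndufb8 (0.34 ± 0.11), and those that fell were the assembly factors Ndufaf4 (−0.30 ± 0.10) and Ndufaf7 (−0.28 ± 0.08). This count of 6 was 18 without WT replicate 2 of day 6, 0 without replicate 3 of day 6, 1 without replicate 1 of day 6 and 1 to 3 when each library of day 9 was left out in turn.

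In WT MEFs the rise was smaller and spread over days 0 to 12. The summed level of the members was 1442, 1395 and 1438 CPM at day 0, 1974, 1599 and 1664 CPM at day 4, 2146, 1723 and 2142 CPM at day 8 and 2937, 2893 and 2899 CPM at day 12. From day 0 to day 4, 22 members rose and none fell, against 26.8% of all genes that rose (median 0.30, all genes 0.04). The largest of these changes were those of Ndufaf4, a Q module assembly factor (0.94 ± 0.10), Ndufa12 (0.78 ± 0.10), Ndufab1 (0.73 ± 0.07) and Ndufb9 (0.68 ± 0.06). From day 4 to day 8 no member passed with edgeR, against 1.72% of all genes, with 10 at an unadjusted p under 0.05 and 1 past the test with DESeq2. Without WT replicate 1 of day 4, 19 members passed, and without WT replicate 2 of day 8, 18 passed. From day 8 to day 12, 26 members rose and none fell, against 20.7% of all genes (median 0.34, all genes 0.00), among them 6 of the 7 core subunits. Ndufa9 (0.92 ± 0.15) and Ndufv1 (0.86 ± 0.12) had the largest values, as they were among the 3 largest in preadipocytes.

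The order of the members in the main step was partly shared by both systems. Across the 45 members, the WT change from day 3 to day 6 in preadipocytes and that from day 8 to day 12 in MEFs had a Pearson r of 0.64 and a Spearman rho of 0.604, against 0.427 and 0.397 over 15375 genes. These are correlations across genes, which are not independent replicates, and the 2 comparisons share no library. For the WT change from day 0 to day 4 in MEFs, set against the same preadipocyte step, r was 0.353 and rho 0.327, against 0.029 and 0.074 over all genes. The position of Ndufa4, which changed by 1.29 ± 0.08 in preadipocytes and by 0.03 ± 0.11 (adjusted p = 0.873) in MEFs, was far from this order.

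Per kilobase of transcript, assembly factors were much less abundant than subunits. In WT preadipocytes at day 9 the 37 other members had between 48.7 and 330.0 CPM per kb (median 119.7), the 8 assembly factors between 3.80 and 26.0 (median 9.87). Ndufa4 had the highest level (330.0 ± 12.3 CPM per kb, SD, n = 3), and Ndufb9 (264.9 ± 13.3) and Ndufb8 (233 ± 14.9) were also among the highest. The libraries of Ndufb9 (255 to 280.1) lay below those of Ndufa4 and above those of Ndufb8 (224 to 250.3). Ndufaf6, which acts in the assembly of the ND1 module, was lowest (3.80 ± 0.318). Lengths are of the shortest best-supported principal transcript of GENCODE M21, and reads of longer isoforms (Ndufb2, Ndufab1) can make these values too high.

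Most complex I genes passed the test as higher in DKO than in WT cells at preadipocyte day 6 and MEF day 12. On the other days few or none passed. These counts alone do not show that the effect differed between days. At preadipocyte day 9 the median was 0.43, against 0.49 at day 6, and no member passed a test of the difference between these days. At day 0 no member passed the test in preadipocytes, against 0.0727% of all genes higher (median −0.06), and 1 member had an unadjusted p under 0.05. The summed level at day 0 was 1515, 1493 and 1540 CPM in DKO libraries, within the WT range of 1498 to 1623 CPM but for replicate 2. In 6 of 45 members every DKO library of preadipocyte day 0 was below every WT library, against 1139 of 15123 genes. In 0 members every DKO library was above, against 7.39% of all genes. At day 0 in MEFs no member passed either, against 0.0383% of all genes higher (median −0.01), with 2 at an unadjusted p under 0.05. DESeq2 and limma-voom also called none at day 0 in both.

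At day 6 in preadipocytes 40 of 45 members were higher in DKO cells and none was lower, against 11.6% of all genes that were higher. The median was 0.49 (1.40-fold), against −0.01 over all genes, and all 45 log2 fold changes were above 0. Of these, 8 also reached 1.5-fold, against 5.03% of all genes. The summed level was 5953, 7129 and 6854 CPM in DKO libraries (replicates 1, 2 and 3) against the 4095 to 5165 CPM of WT, and the genotypes did not overlap. In 42 of 45 members (all but Ndufa2, Ndufaf2 and Ndufaf8) every DKO library was above every WT library, against 24.7% of all genes.

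The 7 core subunits all passed at day 6. Ndufv1 (chromosome 19, 4007384 to 4012806) had 239, 319.7 and 255 CPM in WT and 398, 482 and 447 CPM in DKO libraries (log2 fold change 0.67 ± 0.12, adjusted p = 0.00995). It was the largest difference of any member, and the lowest DKO library was above the highest WT library. Ndufs1 (chromosome 1, 63143596 to 63176833), the largest core subunit and carrier of iron-sulfur clusters of the N module, had 258, 281 and 262 CPM in WT and 362, 431 and 452 CPM in DKO libraries (0.60 ± 0.10, adjusted p = 0.00788). Ndufv2, which holds a further N module cluster, had 147, 177 and 151 CPM in WT and 198, 243 and 238 CPM in DKO libraries (0.48 ± 0.11). Ndufv1, Ndufs1 and Ndufv2 thus had no library of 1 genotype within the range of the other.

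In the Q module, Ndufs3 had 106, 130.4 and 108 CPM in WT and 150.5, 181 and 178 CPM in DKO libraries (0.53 ± 0.11). Ndufs7, which carries the last cluster before ubiquinone, had 56.5, 84.9 and 62.5 CPM in WT and 93.0, 104 and 106 CPM in DKO libraries (0.54 ± 0.14). WT replicate 2 was the highest WT library for both and stayed under the lowest DKO library. Ndufs8, the other Q module cluster protein, had 53.2, 72.7 and 58.9 CPM in WT and 82.6, 100.0 and 91.7 CPM in DKO libraries (0.53 ± 0.12). The range over the core subunits was thus 0.48 to 0.67.

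Of the 9 accessory subunits of the matrix arm 8 passed, with a median of 0.49. The smallest p-value belonged to Ndufa5, which had 46.6, 52.2 and 48.3 CPM in WT and 68.3, 76.0 and 80.4 CPM in DKO libraries (0.58 ± 0.08, adjusted p = 0.00505). Ndufs4, a late-added subunit of the N module, had 66.6, 75.7 and 61.9 CPM in WT and 101, 104 and 117 CPM in DKO libraries (0.62 ± 0.10, adjusted p = 0.0062). Ndufa9 (chromosome 6, 126821721 to 126849136) had 162, 199 and 169 CPM in WT and 255, 301 and 292 CPM in DKO libraries (0.64 ± 0.10, adjusted p = 0.00652). All of them were separated by genotype, while Ndufa2, the member that did not pass, had overlapping libraries (0.36 ± 0.14, adjusted p = 0.0954).

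Of the 19 accessory subunits of the membrane arm 17 passed, with a median of 0.49 and a range of 0.34 to 0.60. Ndufb3 had 74.8, 87.6 and 70.6 CPM in WT and 107, 121 and 119.6 CPM in DKO libraries (0.54 ± 0.09, adjusted p = 0.00844). Ndufb11 had 108, 134 and 113 CPM in WT and 163, 194 and 179 CPM in DKO libraries (0.55 ± 0.10, adjusted p = 0.00962). Ndufb9 (chromosome 15, 58933756 to 58939488) had 147, 186 and 156 CPM in WT and 224, 259.8 and 272 CPM in DKO libraries (0.59 ± 0.11, adjusted p = 0.011). These 3 had the smallest p-values of the group, and Ndufa10 had the largest fold change in it (0.60 ± 0.11). The members that did not pass were Ndufb2 (0.34 ± 0.11, adjusted p = 0.0544) and Ndufb7 (0.47 ± 0.16, adjusted p = 0.0755). Ndufab1, which also serves mitochondrial fatty acid synthesis, had 104, 130.1 and 115 CPM in WT and 143, 172 and 171 CPM in DKO libraries (0.44 ± 0.11, adjusted p = 0.0231), and Ndufa4 had 209.9, 251 and 215 CPM in WT and 268, 342 and 310.0 CPM in DKO libraries (0.41 ± 0.11, adjusted p = 0.0337).

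Among the 8 assembly factors 6 passed, with a median of 0.38. Ndufaf1, part of the MCIA complex that builds the membrane arm, had 36.8, 39.9 and 38.7 CPM in WT and 46.6, 58.7 and 49.5 CPM in DKO libraries (0.39 ± 0.09). Ndufaf3 had 10.3, 13.1 and 10.7 CPM in WT and 15.9, 14.2 and 16.1 CPM in DKO libraries (0.41 ± 0.12). Ndufaf4, its partner on the Q module, had 46.4, 47.6 and 44.6 CPM in WT and 54.9, 62.5 and 63.4 CPM in DKO libraries (0.35 ± 0.08). The libraries of these factors were separated by genotype, as were those of the next 3. Ndufaf5 had 9.54, 9.78 and 8.55 CPM in WT and 11.5, 13.7 and 15.1 CPM in DKO libraries (0.49 ± 0.13). Ndufaf6 had 4.36, 4.66 and 4.12 CPM in WT and 6.39, 6.16 and 7.62 CPM in DKO libraries, the largest fold change of the factors (0.59 ± 0.15) at the lowest level. Ndufaf7, a methyltransferase that acts early in assembly, had 31.7, 36.8 and 31.5 CPM in WT and 38.5, 49.0 and 42.4 CPM in DKO libraries (0.34 ± 0.10). Ndufaf8, the partner of Ndufaf5, did not pass (0.36 ± 0.19, adjusted p = 0.2), with 3.76, 6.08 and 4.64 CPM in WT and 5.71, 6.65 and 6.74 CPM in DKO libraries.

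**Figure D2:**
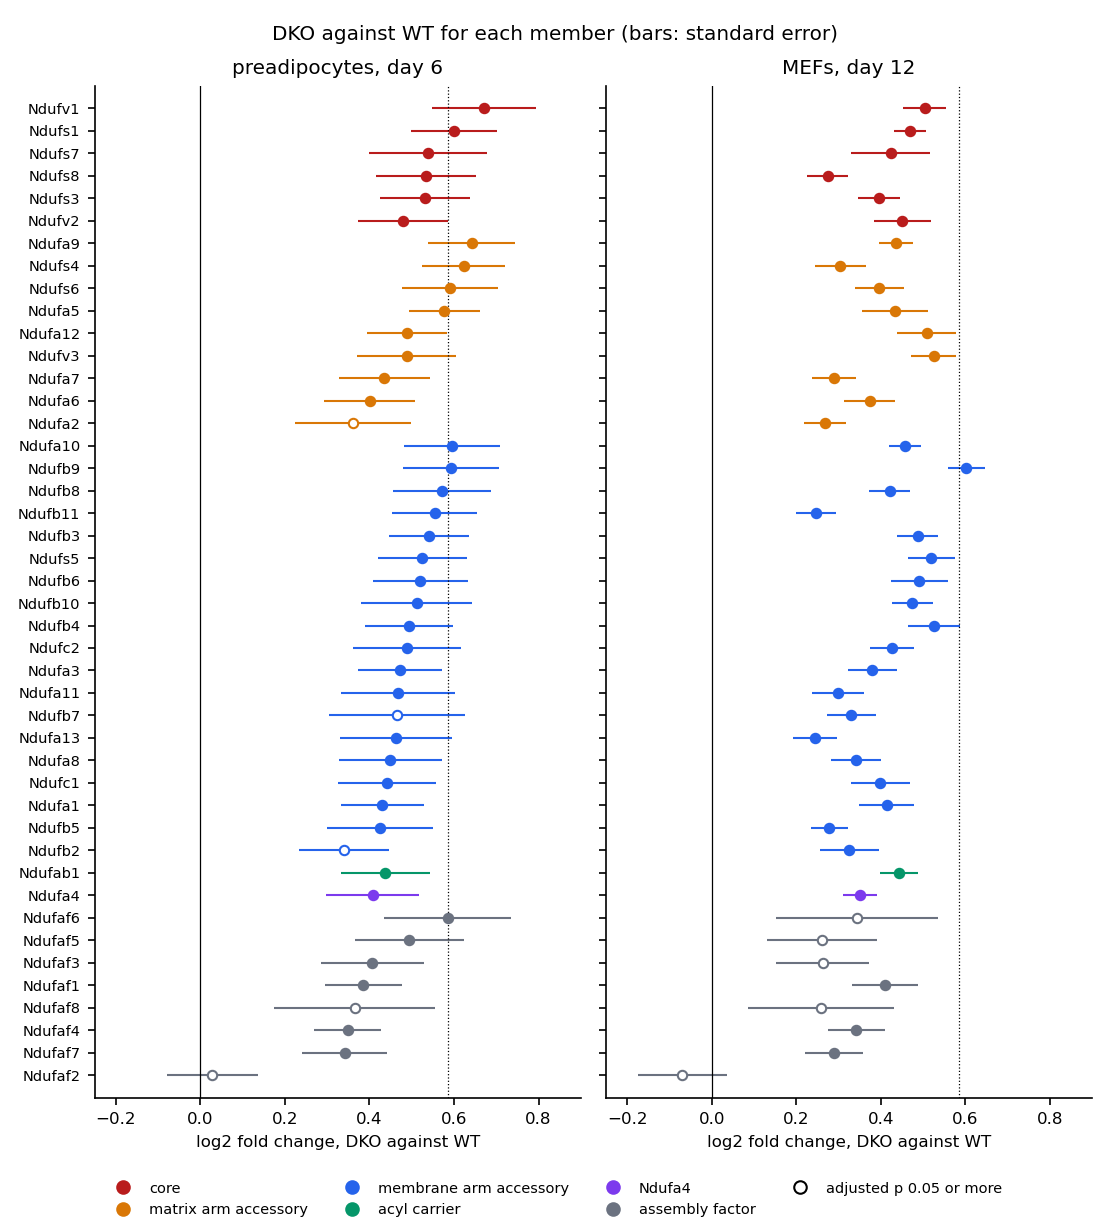
Log2 fold change of DKO against WT (horizontal axis) for 44 members at preadipocyte day 6 (left) and MEF day 12 (right), coloured by role, with bars for the standard error of the edgeR fit. Open points did not pass the test, the solid line is at 0 and the dotted line at 1.5-fold. All members shown but Ndufaf2 lie to the right of 0 in both panels.

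Ndufaf2 (chromosome 13, 108002715 to 108158623) stood apart from the other members. At day 6 it had 12.8, 14.9 and 12.8 CPM in WT and 12.9, 14.3 and 15.1 CPM in DKO libraries (0.03 ± 0.11, adjusted p = 0.871), and the genotypes overlapped. Its log2 fold change was −0.28 ± 0.13 at day 0, −0.21 ± 0.11 at day 3 and 0.07 ± 0.12 at day 9 in preadipocytes. In MEFs it was −0.26 ± 0.15, −0.13 ± 0.19, −0.03 ± 0.12 and −0.07 ± 0.10 at days 0, 4, 8 and 12. It was the lowest of the 45 members in 5 of the 8 comparisons of genotype and among the lowest 2 in 7. In the 6 comparisons after day 0 it was above 0 in 2, whereas 40 members were above 0 in 6 of 6 and the remaining 4 in 5. At preadipocyte day 6 its sign changed when libraries were scaled by library size only (−0.07) and when any of 3 libraries was left out, these being the DKO library numbered 3 (−0.03) and the WT ones numbered 1 (−0.00) and 3 (−0.01).

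The day 6 count moved when single libraries were left out. Without WT replicate 3 it fell from 40 to 5, without DKO replicate 3 to 12 and without WT replicate 1 to 15, while the median stayed between 0.43 and 0.62 whichever library was left out. With scaling by library size only, the median of all genes shifted to −0.11, 32 members passed and none reached 1.5-fold, and the members' median lay 0.50 above that of all genes with either scaling.

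At preadipocyte days 3 and 9 the members leaned the same way with few past the test. At day 3 no member passed with edgeR, against 0.179% of all genes higher (median 0.28, 43 of 45 above 0, 21 with an unadjusted p under 0.05), and 6 passed with DESeq2 and none with limma-voom. In 24 of 45 members every DKO library was above every WT library, against 10.6% of all genes. The largest were Ndufaf1 (0.57 ± 0.11, adjusted p = 0.124), Ndufv1 (0.56 ± 0.10, adjusted p = 0.0971) and Ndufa9 (0.52 ± 0.10, adjusted p = 0.1), and the summed level was 1846, 2170 and 2050 CPM in DKO libraries against 1601 to 1730 CPM in WT. At day 9, 2 members passed, against 1.17% of all genes higher, namely Ndufaf4 (0.54 ± 0.09, adjusted p = 0.0424) and Ndufs1 (0.54 ± 0.10, adjusted p = 0.0472). All 45 were above 0 (median 0.43), 41 had an unadjusted p under 0.05, and 42 had every DKO library above every WT library, against 22.2% of all genes. The DKO sums at day 9 were 6584, 5947 and 8064 CPM against 4853 to 5009 CPM in WT, with DKO replicates farther apart than WT replicates. Without DKO replicate 2 the day 9 count was 41, and leaving out each of the other libraries in turn gave 0. DESeq2 called 32 members at day 9, limma-voom 1, and the fit over all days 33.

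**Figure D3:**
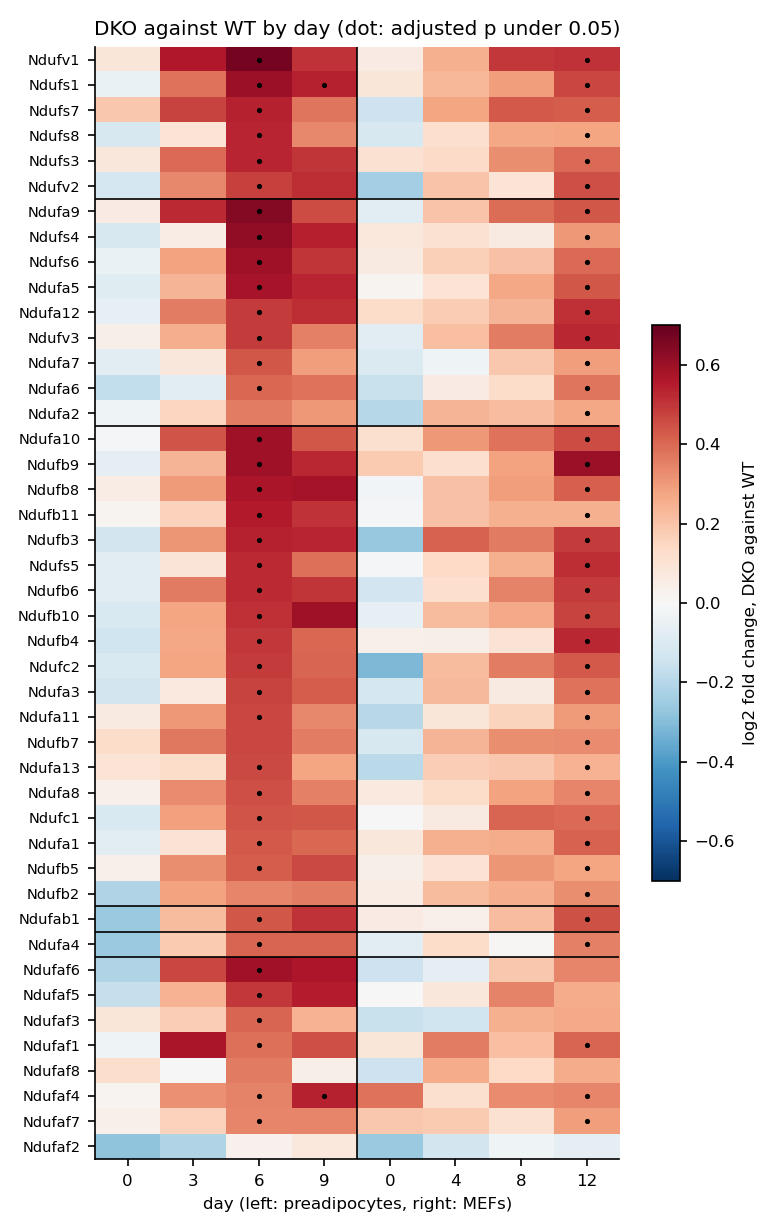
Log2 fold change of DKO against WT for 44 members (rows, grouped by role between horizontal lines) at 4 days in preadipocytes (left 4 columns) and 4 days in MEFs (right 4 columns). Red is higher and blue lower in DKO, and a dot marks an adjusted p under 0.05. Dots fill most of the columns of preadipocyte day 6 and MEF day 12, and 2 stand at preadipocyte day 9.

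MEFs at day 12 again had 40 of 45 members higher in DKO cells and none lower, against 17.3% of all genes higher. The median was 0.40 (1.32-fold), against 0.00 over all genes, 44 of 45 were above 0, and 1 member, Ndufb9, reached 1.5-fold, against 3.92% of all genes. Summed levels were 3845, 4059 and 3891 CPM in DKO libraries against 2937, 2893 and 2899 CPM in WT libraries. Ndufb9, a membrane arm subunit of the LYR family, had 88.7, 90.2 and 91.9 CPM in WT and 135, 146 and 137 CPM in DKO libraries (0.60 ± 0.04, adjusted p = 5.98e-08). Ndufv1 had 206, 187 and 186 CPM in WT and 266, 297 and 271 CPM in DKO libraries (0.50 ± 0.05, adjusted p = 2.31e-06). Ndufs1 had 201, 200.0 and 203 CPM in WT and 276, 288 and 286 CPM in DKO libraries (0.47 ± 0.04, adjusted p = 1.88e-07). In 44 of 45 members, all but Ndufaf2, every DKO library was above every WT library, against 26.5% of all genes.

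All 35 core and accessory subunits of both arms among the members passed at MEF day 12, as did Ndufab1 (0.44 ± 0.05) and Ndufa4 (0.35 ± 0.04). The medians were 0.42 for the core, 0.40 for the matrix arm accessory and 0.41 for the membrane arm accessory subunits. Of the 8 assembly factors only Ndufaf1 (0.41 ± 0.08), Ndufaf4 (0.34 ± 0.07) and Ndufaf7 (0.29 ± 0.07) passed (median 0.28). The others had values of 0.34 ± 0.19 (Ndufaf6), 0.26 ± 0.11 (Ndufaf3), 0.26 ± 0.13 (Ndufaf5), 0.26 ± 0.17 (Ndufaf8) and −0.07 ± 0.10 (Ndufaf2), and the libraries held 2.51 to 3.96 CPM of Ndufaf6 and 3.05 to 4.17 CPM of Ndufaf8. Of the 40 members past the test in each system, 37 were shared: Ndufaf3, Ndufaf5 and Ndufaf6 passed in preadipocytes only, Ndufa2, Ndufb2 and Ndufb7 in MEFs only, and Ndufaf2 and Ndufaf8 in neither, and the difference between the systems was not tested. Across the 45 members the DKO effects at preadipocyte day 6 and MEF day 12 had an r of 0.66 and a rho of 0.488, against 0.624 and 0.608 over 14144 genes.

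Some MEF libraries differed little from each other. The 3 WT libraries of MEF day 12 differed by a chi-square per degree of freedom of 2.14 to 3.42 and the DKO libraries by 2.91 to 11.6, and WT pairs of preadipocyte day 6 by 14.8 to 32.5, where sampling alone gave 0.990 to 1.00. Close pairs also occurred elsewhere in WT MEFs. They were replicates 1 and 3 of day 8 (2.11), 1 and 3 of day 0 (3.198) and 2 and 3 of day 4 (6.30). The remaining pairs of these groups differed by 82.2 to 88.1, 16.6 to 18.0 and 77.3 to 78.3, and other MEF pairs reached 153.8. The study calls its MEF replicates biological, without saying whether a replicate was an embryo or a culture, and the p-values measure the spread between these libraries. With 1 fit over all days of MEFs, 6 members passed at day 12 in place of 40.

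At MEF days 4 and 8 no member passed with edgeR, against 0.0194% and 0.0132% of all genes higher, and DESeq2 and limma-voom called none either. The median was 0.17 at day 4 (41 of 45 above 0, 1 with an unadjusted p under 0.05) and 0.26 at day 8 (44 of 45, none). The sums at day 8 were 2930, 2658 and 1756 CPM in DKO libraries and 2146, 1723 and 2142 CPM in WT libraries. DKO replicate 3 and WT replicate 2 lay low beside the others of their genotype, and no member had every DKO library above every WT library, against 8.24% of all genes. Without DKO replicate 3 the median was 0.43, still with no member past the test.

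**Figure D4:**
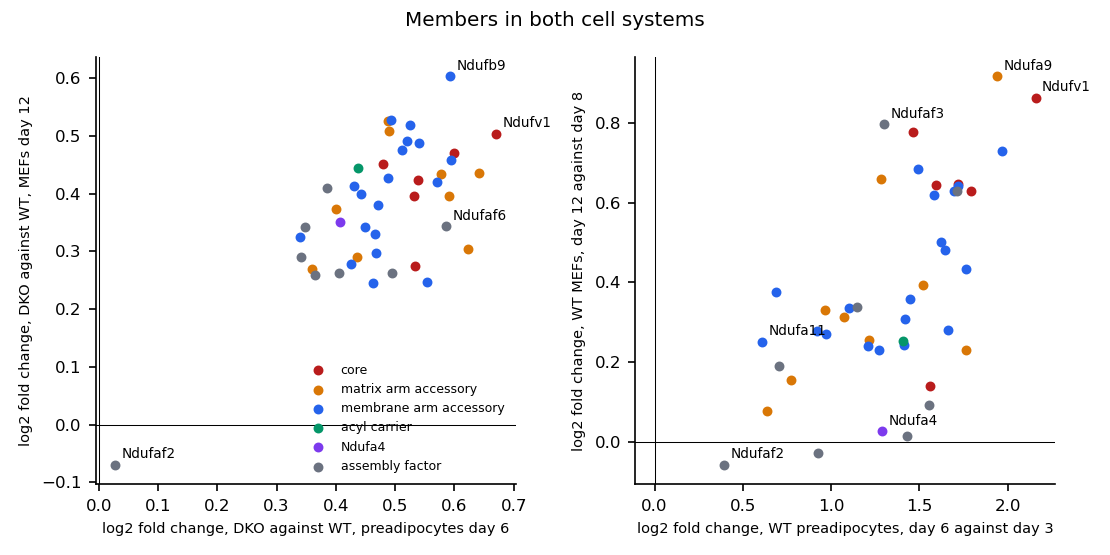
Left, log2 fold change of DKO against WT at preadipocyte day 6 (horizontal) and at MEF day 12 (vertical), 1 point for each of 44 members, coloured by role. Right, log2 fold change of WT preadipocytes from day 3 to day 6 (horizontal) and of WT MEFs from day 8 to day 12 (vertical). Ndufaf2 lies at the lower left of both panels, and Ndufv1 is the rightmost point of both.

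Tests of the difference between days gave fewer members. In preadipocytes the DKO effect was larger at day 6 than at day 0 for 16 members, against 2.83% of all genes, with a median difference of 0.58. Of those past the test the largest were Ndufs4 (0.77 ± 0.13, adjusted p = 0.0151), Ndufab1 (0.73 ± 0.16), Ndufb3 (0.70 ± 0.14) and Ndufa4 (0.70 ± 0.17). At day 0 Ndufa4 had 93.2, 84.7 and 93.05 CPM in WT and 62.6, 80.6 and 83.2 CPM in DKO libraries. Ndufab1 had 43.5, 33.7 and 35.85 CPM in WT and 32.1, 31.5 and 31.1 CPM in DKO libraries. In both genes every DKO library of day 0 was below every WT library, while Ndufs4 and Ndufb3 overlapped. In MEFs the effect at day 12 exceeded that at day 0 for 15 members, against 2.02% of all genes, with a median difference of 0.45. The largest of these were Ndufb3 (0.79 ± 0.14), Ndufc2 (0.78 ± 0.12) and Ndufv2 (0.72 ± 0.14), and Ndufa9 had the smallest adjusted p (0.54 ± 0.07, adjusted p = 0.00524). Both counts moved with single libraries, from 0 to 30 in preadipocytes and from 1 to 26 in MEFs. In preadipocytes the count was 30 without WT replicate 2 of day 6, 0 without WT replicate 1 of day 0, WT replicate 1 of day 6 or WT replicate 3 of day 6, and 2 to 23 otherwise. In MEFs it was 26 without DKO replicate 2 of day 0, 1 to 4 when each WT library of either day was left out in turn, and 6 to 8 likewise for the DKO libraries of day 12. No member passed this test between days 6 and 9 in preadipocytes or between days 12 and 8 in MEFs, where 0.0% of all genes did (0 and 1 members with an unadjusted p under 0.05, none with DESeq2), and the block of same-numbered cultures also gave 0 for days 6 and 9.

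Other respiratory chain genes were read beside the members. The mitochondrially encoded complex I subunits, mt-Nd1 to mt-Nd6 and mt-Nd4l, numbered 7 and already rose in the first step, and the difference from the nuclear members was not tested. From day 0 to day 3 of WT preadipocytes 6 of 7 rose, with a median of 0.66 against 0.11 for the members, and in WT MEFs from day 0 to day 4 7 of 7 rose, with a median of 1.25 against 0.30. The exception at day 3 was mt-Nd6, the one encoded on the light strand (0.07 ± 0.35). From day 3 to day 6 all 7 rose in preadipocytes. How far the library preparation captured mitochondrial RNA was not tested, since the label gives polyA RNA and the study's methods a total RNA kit.

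In DKO against WT preadipocytes at day 6, 4 of the 7 were higher: mt-Nd5 (0.52 ± 0.14), mt-Nd4 (0.49 ± 0.14), mt-Nd2 (0.48 ± 0.13) and mt-Nd6 (0.47 ± 0.11). The others had values of 0.28 ± 0.17 (mt-Nd1), 0.15 ± 0.11 (mt-Nd4l) and −0.06 ± 0.19 (mt-Nd3). At MEF day 12, 5 of 7 were higher (median 0.47). Of 9 further assembly factors tested 4 were higher and none lower at preadipocyte day 6 (median 0.29), and 7 were higher and 1 lower at MEF day 12 (median 0.27). Complex II had 4 of 4 subunits higher in both (medians 0.61 and 0.40). Of 40 tested genes of complexes III, IV and V, chosen by symbol, 29 were higher at preadipocyte day 6 (median 0.49). At MEF day 12, 36 were higher (median 0.41), with none lower on either day. Cox7a1 and Cox8b are on this list and also among the brown adipocyte markers below. Of 78 genes of the mitochondrial ribosome, 46 and 58 were higher (medians 0.37 and 0.27). The members' medians of 0.49 and 0.40 were close to those of the other complexes. Ndufa4l2, the paralog of Ndufa4, did not pass the test from day 3 to day 6 in WT preadipocytes (−0.45 ± 0.24) or in either genotype comparison (0.31 ± 0.16 and 0.62 ± 0.25).

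The summed adipocyte markers were also higher in DKO libraries at these days. The summed level of 10 markers (among them Adipoq, Fabp4, Plin1 and Lpl) in preadipocytes at day 6 was 25088, 30385 and 26351 CPM in WT and 33248, 41554 and 37274 CPM in DKO libraries, a ratio of the means of 1.37, against 1.47 for the members. At MEF day 12 the ratios were 1.54 and 1.35. At MEF day 8 the libraries low in the members were also low in the markers, with 4523 CPM in WT replicate 2 (the others 11236 and 10980) and 5225 CPM in DKO replicate 3 (the others 19724 and 15011). Of the 10 markers, 5 were higher at preadipocyte day 6 (Fabp4, Plin1, Lipe, Pnpla2 and Pparg) and 10 at MEF day 12. Adipoq (0.20 ± 0.16), Lpl (0.17 ± 0.13), Cebpa (0.14 ± 0.13), Cd36 (0.34 ± 0.13) and Cidec (0.67 ± 0.27) did not pass at preadipocyte day 6. Of 7 brown adipocyte markers, 6 were higher at preadipocyte day 6, among them Ucp1 (2.38 ± 0.14) and Cidea (2.72 ± 0.37), and 5 were higher and 1 lower at MEF day 12. The part of the adipocyte share in the difference of the members was not tested.

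Summed preadipocyte, fibroblast and macrophage markers were lower in DKO libraries at preadipocyte day 6 and MEF day 12. The sum of 9 preadipocyte and fibroblast markers at preadipocyte day 6 was 9440 to 11268 CPM in WT and 2883 to 4489 CPM in DKO libraries, and 4 of the 8 tested were lower and 1 higher. That of 7 macrophage markers was 6830 to 11274 CPM in WT and 2333 to 5458 CPM in DKO libraries, with 1 of 7 lower, and it had been at most 464 CPM at days 0 and 3. At MEF day 12 the macrophage sums were 5324 to 5363 CPM in WT and 3491 to 4023 CPM in DKO libraries, with 7 of 7 lower. The preadipocyte and fibroblast sums at MEF day 12 were 14779 to 15348 CPM in WT and 8724 to 9458 CPM in DKO libraries. Of these markers Col1a1, Col3a1, Dlk1, Ly6a and Pdgfra were lower and Thy1 was higher (0.36 ± 0.06). Cd34, Pdgfrb and Dpp4 did not pass. The library at preadipocyte day 9 whose removal raised the count of members, DKO replicate 2, had 10977 CPM of preadipocyte and fibroblast markers against 4716 and 3425 CPM in the other DKO libraries. The sum of 5 cell cycle genes at day 6 was 100.0 to 136 CPM in WT and 55 to 67 CPM in DKO libraries, with 4 of 5 lower. Endothelial markers summed to 4 to 36 CPM and epithelial markers to 0 to 12 CPM in all libraries, and muscle markers to 3 to 356 CPM. The part of these cells in the result was not tested.

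**Figure D5:**
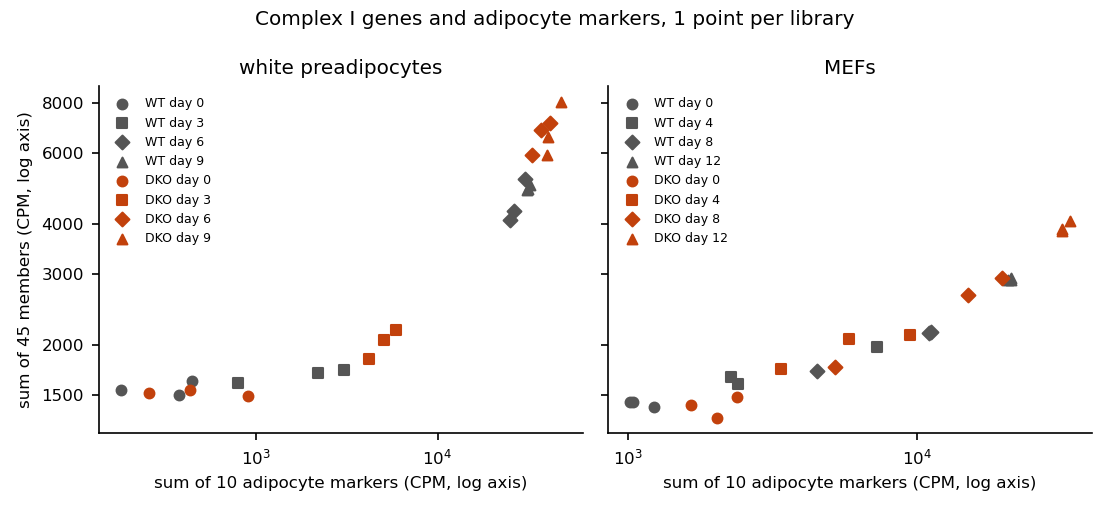
Summed CPM of the 45 members (vertical, log axis) against the summed CPM of 10 adipocyte markers (horizontal, log axis), 1 point per library, in preadipocytes (left) and MEFs (right). Symbols give the day, grey is WT and orange DKO. Day 6 and 9 preadipocyte libraries lie at the upper right, with DKO above and to the right of WT, and members range from 1493 CPM at day 0 to 8064 CPM at day 9.

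Of 7 regulators of mitochondrial genes, 3 were higher at preadipocyte day 6 and 4 at MEF day 12. At preadipocyte day 6 Ppargc1a (0.79 ± 0.13, adjusted p = 0.00696), Ppargc1b (0.57 ± 0.13) and Esrra, the receptor ERRα (0.50 ± 0.14), were higher. Tfam (0.23 ± 0.08, adjusted p = 0.0834), Gabpa (0.14 ± 0.10), Nrf1 (−0.01 ± 0.08) and Yy1 (−0.14 ± 0.08) did not pass. At MEF day 12 Ppargc1b (0.86 ± 0.12), Esrra (0.45 ± 0.07), Ppargc1a (0.26 ± 0.07) and Tfam (0.19 ± 0.07) were higher. Ppargc1a, which drives mitochondrial biogenesis, rose from 0.641 ± 0.402 CPM at day 3 to 24.2 ± 0.748 CPM at day 6 in WT preadipocytes (SD, n = 3).

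The starts of the member genes were searched for sequences that factors of this kind bind. RefSeq windows (GRCm38.p6) of 300 bases, 250 before and 50 after the annotated start, were found for 40 of 45 members, and both strands were read. The NRF1 motif CGCATGCG was in 4 of 40, against 2.07% of 27025 genes with such a window. Its 4 sites are shown with 11 bases on each side (30 for the whole), with the motif in capitals.
Ndufa8: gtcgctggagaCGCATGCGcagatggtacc
Ndufaf5: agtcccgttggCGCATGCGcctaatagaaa
Ndufaf4: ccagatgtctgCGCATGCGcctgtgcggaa
Ndufa11: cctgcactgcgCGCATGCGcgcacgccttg

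These lie at chr2:36049329-36049358 (minus strand), chr2:140170652-140170681 (plus), chr4:24897960-24897989 (plus) and chr17:56717692-56717721 (plus), with the first base of the motif at −9, 18, −112 and −59, where 1 is the annotated start. They belong to different roles, a pair of membrane arm subunits and a pair of assembly factors. Their median log2 fold change at preadipocyte day 6 was 0.46, against 0.49 for the 36 members without the motif, and 1.12 against 1.43 for the WT step from day 3 to day 6.

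The YY1 motif AAGATGGC was in 8 of 40, against 3.19% of genes. All 8 sites were on the strand of the gene and began at bases 11 to 39. The sequence around 4 of them, from 4 roles, shows the ATG inside the motif.
Ndufs7: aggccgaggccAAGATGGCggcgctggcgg
Ndufa9: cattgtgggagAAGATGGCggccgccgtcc
Ndufb8: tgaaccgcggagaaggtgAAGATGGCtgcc
Ndufaf8: aggcagggcccAAGATGGCggcgccctcga

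Their positions are chr10:80249462-80249491 (plus strand), chr6:126849097-126849126 (minus), chr19:44555393-44555422 (minus) and chr11:120098933-120098962 (plus). In 7 of the 8 genes the ATG of the motif is an annotated start codon, Ndufaf8 being the exception, so the letters also belong to the coding sequence. Members with it had a median of 0.55 at preadipocyte day 6 and those without 0.47. For the WT step from day 3 to day 6 the medians were 1.40 and 1.42. The ETS motif CCGGAAGT was in 1 of 40 (Ndufs3) against 4.31% of genes, the cAMP response element TGACGTCA in 3 of 40 (Ndufa10, Ndufa11 and Ndufb2) against 2.03%, and CCAAT in 14 of 40 against 41.1%. The ERR motif TCAAGGTCA was in none, against 0.466% of genes, which says only that these letters are not in the windows.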

How the data were processed

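Stranded RNA-seq reads were processed by the authors with bcl2fastq 2.17, cutadapt 1.18, STAR 2.7.0f and RSEM 1.3.0 against mm10, as the methods and processing notes state. The labels give polyA RNA, the study's methods a total RNA kit. The authors deposited 1 table of RSEM expected counts per cell type, not normalised, and these were rounded to whole numbers. Reads shared by near-identical copies are split by RSEM, so members with pseudogenes carry that uncertainty.

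Comparisons were tested with edgeR 4.0.16 (quasi-likelihood, filterByExpr, TMM, robust, R 4.3.3) over all genes that passed the filter, with Benjamini-Hochberg adjustment. Genotypes were compared within a day (6 libraries), WT days in 1 fit over the 12 WT libraries, and differences of the DKO effect with an interaction term over the 4 groups concerned. Alternatives were DESeq2 1.42.0, limma-voom (limma 3.58.1) with quantile normalisation, scaling by library size, other filters on low counts, a fit over all days, a fold threshold of 1.5, a replicate block and leaving out each library. Each library had between 18962483 and 36006696 summed counts. Scripts were tested on simulated data.

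The members, roles, other gene lists and cell markers were chosen with earlier results of these data known. Values in every library are given at preadipocyte day 6 for the core subunits, assembly factors, Ndufab1, Ndufa4 and, in each accessory group, the 3 members with the smallest p. The values of 1 member are not reported here, and counts, medians and sums include it. Same-numbered WT and DKO libraries of a day had correlations of 0.01, −0.10 and 0.04 at preadipocyte day 6. At preadipocyte day 3 these were 0.448, 0.036 and 0.543, and at day 0 0.286, −0.267 and 0.524. At MEF day 8 they were 0.602, −0.493 and −0.687. Such libraries did not all deviate together, so genotypes were not paired. Same-numbered preadipocyte cultures of days 6 and 9 did (WT 0.453, 0.267 and 0.130, DKO 0.459, 0.441 and 0.368). For days 0 and 3 the values were 0.562, 0.407 and 0.501 in DKO and −0.122, −0.100 and 0.463 in WT preadipocytes. For days 4 and 8 of MEFs they were 0.531, 0.515 and −0.408 in WT and −0.197, −0.429 and −0.659 in DKO. Any such pairing rests on the data and not on a label.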

Additional observations from a re-analysis of the deposited data

Results flagged for a closer look

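The DKO effect differed between days by a test of the difference itself (edgeR's quasi-likelihood interaction term, adjusted p under 0.05 over all genes) for 16 members in preadipocytes and 15 in MEFs. In each case the difference of log2 fold changes is that of the late day minus day 0, and all were above 0. By the same test 2.83% of all genes in preadipocytes and 2.02% in MEFs passed with a difference above 0. Both counts of members moved strongly when single libraries were left out, as given above.

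In preadipocytes, day 6 minus day 0, these were Ndufa10 (0.64), Ndufa12 (0.58), Ndufa3 (0.64), Ndufa4 (0.70), Ndufa9 (0.62), Ndufab1 (0.73), Ndufb11 (0.57), Ndufb3 (0.70), Ndufb4 (0.67), Ndufb6 (0.63), Ndufb9 (0.69), Ndufs1 (0.68), Ndufs4 (0.77), Ndufs5 (0.63), Ndufs6 (0.67) and Ndufv2 (0.64).

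In MEFs, day 12 minus day 0, these were Ndufa2 (0.50), Ndufa3 (0.54), Ndufa4 (0.46), Ndufa9 (0.54), Ndufb10 (0.57), Ndufb3 (0.79), Ndufb6 (0.66), Ndufb7 (0.48), Ndufb8 (0.48), Ndufc2 (0.78), Ndufs1 (0.42), Ndufs5 (0.57), Ndufv1 (0.48), Ndufv2 (0.72) and Ndufv3 (0.64).

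There were 8 members in both lists. No assembly factor was in either. The part of the adipocyte share of the cultures in these differences was not tested.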

How the results depend on the processing

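The direction of the members' median in DKO cells held at preadipocyte days 3, 6 and 9 and MEF days 4, 8 and 12 under every alternative run. At day 0 in preadipocytes it was near 0 and turned to 0.0095 without WT replicate 1 (range without 1 library −0.077 to 0.0095). In MEFs at day 0 it lay between −0.05 and 0.02. At MEF day 12 it was 0.34 with scaling by library size only and 0.36 to 0.41 without 1 library.

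The number past the test moved more, and the cause was not tested. At preadipocyte day 3 it was 6 with DESeq2, 2 with no filter on low counts and 6 in the fit over all days, in place of 0. At day 6 it was 5 to 41 without 1 library and 8 with the fold threshold. At day 9 it was 32 with DESeq2, 1 with library size only, 1 with limma-voom, 20 with no filter, 33 in the fit over all days, 0 with the fold threshold and 0 to 41 without 1 library, in place of 2. At MEF day 12 it was 6 in the fit over all days and 1 with the fold threshold, in place of 40, and 40 to 41 without 1 library.

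In WT preadipocytes the step from day 0 to day 3 gave 7 to 13 without 1 library and 2 with the fold threshold, that from day 6 to day 9 0 to 18 and 0. In WT MEFs the step from day 0 to day 4 gave 7 and that from day 8 to day 12 gave 15 with the fold threshold, and that from day 4 to day 8 gave 1 with DESeq2 and 0 to 19 without 1 library. The difference of effect in preadipocytes, day 6 minus day 0, gave 31 with DESeq2 and 0 to 30 without 1 library, that in MEFs, day 12 minus day 0, 4 with library size only and 1 to 26.

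With the replicate number as a block, 5 members passed at preadipocyte day 3, 0 at day 9, 1 in the preadipocyte and 3 in the MEF difference of effect against day 0. Same-numbered WT and DKO libraries were not shown to be paired, so these fits share only a number.

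Ndufaf2 at preadipocyte day 6 turned to −0.070 with library size only, and leaving out single libraries gave −0.034 to 0.098, below 0 for 3 of them (WT 1 with −0.0033, WT 3 with −0.0077 and DKO 3 with −0.034). For the 23 members with values in every library, 240 results at preadipocyte day 6 kept direction and side of the threshold, 55 kept only the direction and 4 turned. Ndufaf6 and Ndufaf8 had the lowest counts of any member (25 and 42), and the part of depth in their errors was not tested.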
